A study of Arabidopsis thaliana with 2 samples.

Results

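The comparison of ddb2-3 with Col wild type covered 39254 listed regions on chromosomes 1 to 5 of Arabidopsis thaliana, namely 30324 in the CG context, 4440 in CHG and 4490 in CHH, where H is any base but G. They are all nuclear rows of the 3 region lists that the authors deposited for this pair, out of 83934 rows in the series. DNA came from whole seedlings grown for 10 days in vitro in liquid medium, with 1 library of Col, labelled wild type, and 1 library of ddb2-3, labelled with the insertion DsLoxHs195_05H. Per the submitters' processing notes the genome was TAIR10. ddb2-3 is represented by 1 insertion line, and nothing in the labels separates the insertion from other differences between that line and Col. Whole seedlings hold many cell types, and a different mix of cells cannot be told apart from a different level within cells.

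DDB2 is a DNA damage-recognition protein of global genome nucleotide excision repair, the pathway that removes ultraviolet photoproducts from the whole genome, and it works with DDB1 and the ubiquitin ligase CUL4. In plants CG methylation is copied after replication by MET1 and occurs both in transposons and inside the bodies of transcribed genes. CHG methylation is kept by CMT3 together with histone H3 lysine methylation and marks transposons and heterochromatin. CHH methylation has no symmetric partner to copy and is renewed by CMT2 in heterochromatin and by RNA-directed DNA methylation, a small RNA pathway that acts largely at short transposons near genes and at transposon edges.

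The lists gave a position and a signed difference in methylation level per region, with no reads, coverage, level per library or p-value. The depth behind a region is therefore unknown, the pair has no replicate check, and no test was run. Shares are given with 95% Wilson intervals, which allow for counting error alone. Adjacent regions depend on each other, so the intervals understate the uncertainty for the genome as a whole. The sign was read as Col minus the line. This reading is an inference from regions with identical values in this comparison and in that of a second line, 806 of 818 of which were positive in CG and 5 of 5 in CHH, while those in CHG (4 of 7) did not decide it. It takes both lines to be at zero methylation rather than full methylation in such regions. If it is wrong, every "higher" and "lower" is exchanged. Listed CG regions filled 3.29% of the 100 bp windows of the 5 chromosomes, 1.54% with higher and 1.75% with lower methylation in ddb2-3. CHG regions filled 0.438% (0.263% higher, 0.175% lower) and CHH regions 0.451% (0.323% higher, 0.128% lower). Every listed region exceeded 0.1 in absolute difference, with median absolute differences of 0.232 (CG), 0.180 (CHG) and 0.125 (CHH). Of the regions, 82.5% were a single 100 bp window in CG, 90.1% in CHG and 86.9% in CHH.

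The direction of the difference differed between arms and pericentromeres most in CHG, and by a few percentage points in CG and CHH. A pericentromere was everything within 3 Mb of an assumed centre, placed at 15 Mb on chromosome 1, 3.6 on chromosome 2, 14 on chromosome 3, 4 on chromosome 4 and 12 on chromosome 5, and the arms were the rest. In CHG 66.0% of the 3249 pericentromeric regions were higher in ddb2-3 (64.4% to 67.6%), against 46.0% of the 1191 arm regions (43.2% to 48.9%). In CG 52.4% of the 6911 pericentromeric regions were higher (51.2% to 53.6%), against 46.1% of the 23413 arm regions (45.5% to 46.8%). In CHH 72.5% of the 2124 pericentromeric regions were higher (70.6% to 74.4%), against 68.0% of the 2366 arm regions (66.1% to 69.8%). Among regions with at least 1.5 times the smallest listed difference, the CG shares were 50.6% in pericentromeres and 46.3% on arms, and the CHH shares 70.2% and 65.0%.

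The same order held on most single sides of the 5 centromeres, named left and right by coordinate. The pericentromeric share of higher regions was above that of its own arm on 10 of 10 sides in CHG, 9 of 10 in CG and 8 of 10 in CHH. The CG arms ranged from 43.9% on the right of chromosome 1 to 52.5% on the left of chromosome 4, an arm of only 1 Mb. CHG pericentromeres ranged from 57.4% on the left of chromosome 1 to 71.0% on the right of chromosome 2. Chromosome 1 stood lowest in the pericentromeres in CG (49.2%, 46.3% to 52.0%) and in CHG (60.7%, 56.4% to 64.9%). Chromosome 4 lay close to it in CG, at 50.4% (47.9% to 52.8%). Chromosomes 2, 3 and 5 lay between 53.8% and 54.3% in CG, with intervals that overlap each other. The CHH arms ran from 62.2% to 74.2%, with no side at or below an even split.

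**Figure D1:**
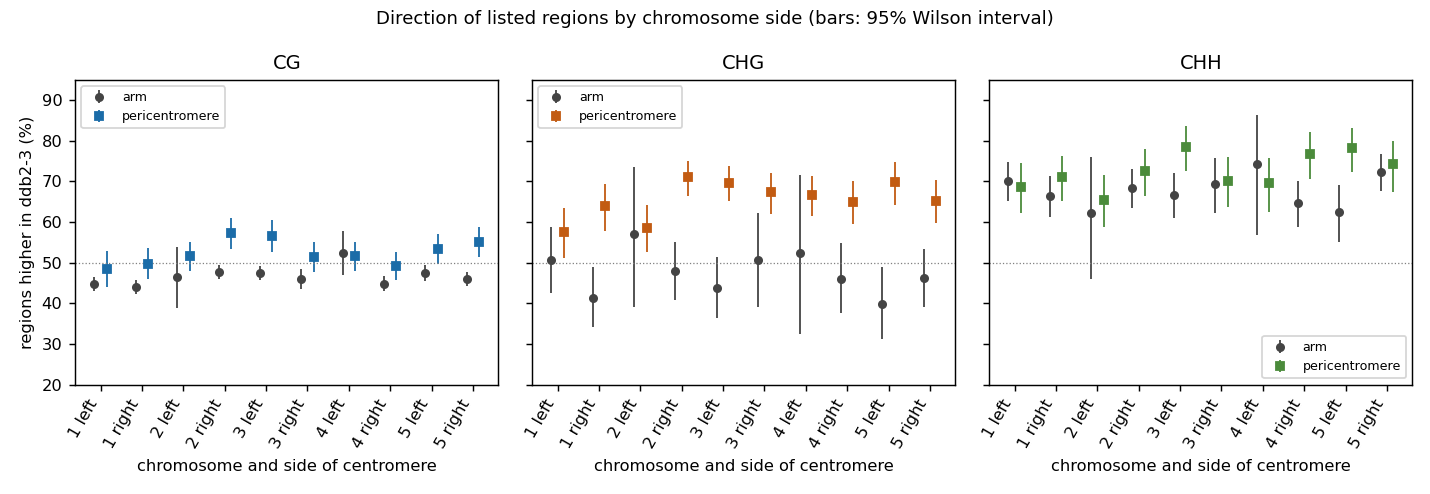
Share of listed regions that were higher in ddb2-3 (percent, y axis) on each side of the 5 centromeres (x axis), for arms (circles) and pericentromeres (squares) in CG, CHG and CHH, with 95% Wilson intervals as bars. In CHG the square lies above the circle on all 10 sides, in CG on 9 and in CHH on 8.

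Density and size of the differences also followed the side and the zone. CHG regions stood at 83.0 to 142 per Mb on the pericentromeric sides and at 10.7 to 46.7 per Mb on the arms, the highest arm value coming from the 0.6 Mb left arm of chromosome 2. CHH regions stood at 61.3 to 84.0 per Mb in pericentromeres and 20.1 to 61.7 on arms. CG regions were spread more evenly, at 171 to 265 per Mb in pericentromeres and 249 to 322 per Mb on arms, and were sparser in the pericentromere on 9 of 10 sides. The median absolute CG difference was smaller in the pericentromere than on its own arm on 10 of 10 sides, at 0.172 to 0.212 against 0.233 to 0.253. In CHG it was nearly the same in both zones, 0.180 and 0.182.

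By distance from the assumed centre of the centromere, the share of higher regions in CG and CHG was highest in the innermost Mb, and in CHH it was nearly flat. In CG 61.1% of the 1806 regions within 1 Mb were higher (58.9% to 63.4%), then 52.2% at 1 to 2 Mb, 46.8% at 2 to 3 Mb and 46.6% at 3 to 4 Mb. The density of each direction was taken per Mb of all sequence, whether or not reads covered it. Higher CG regions numbered 110 per Mb in the innermost Mb and 126 per Mb at 2 to 3 Mb, while lower ones went from 70.2 to 144 per Mb. In CHG 72.3% of the 1446 innermost regions were higher (69.9% to 74.5%), then 64.2%, 55.0% and 47.3% over the next 3 Mb. Here the higher regions thinned out from 104.5 to 34.3 per Mb between the innermost Mb and that at 2 to 3 Mb, and the lower ones from 40.1 to 28.1 per Mb. In CHH the share was 73.7%, 72.1%, 72.0% and 71.7% over the same 4 Mb.

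In CG and CHG the 5 chromosomes were alike in this respect. In the innermost Mb the share of higher regions lay between 57.4% and 64.8% in CG, between 67.8% and 74.1% in CHG and between 65.7% and 80.8% in CHH. At 2 to 3 Mb it lay between 42.2% and 48.8% in CG and between 45.3% and 62.5% in CHG, so the CG ranges at these distances did not overlap, nor did those of CHG. In CHH the range at 2 to 3 Mb was 66.4% to 75.5%, which overlapped that of the innermost Mb, and the order differed between chromosomes. On chromosome 3 the CHH share was 65.7% in the innermost Mb and 75.5% at 2 to 3 Mb, while on chromosome 1 it was 72.9% and 66.4%. With the stricter limit on the difference, the innermost CG share came to 58.0%, that of CHG to 71.9% and that of CHH to 71.1%.

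**Figure D2:**
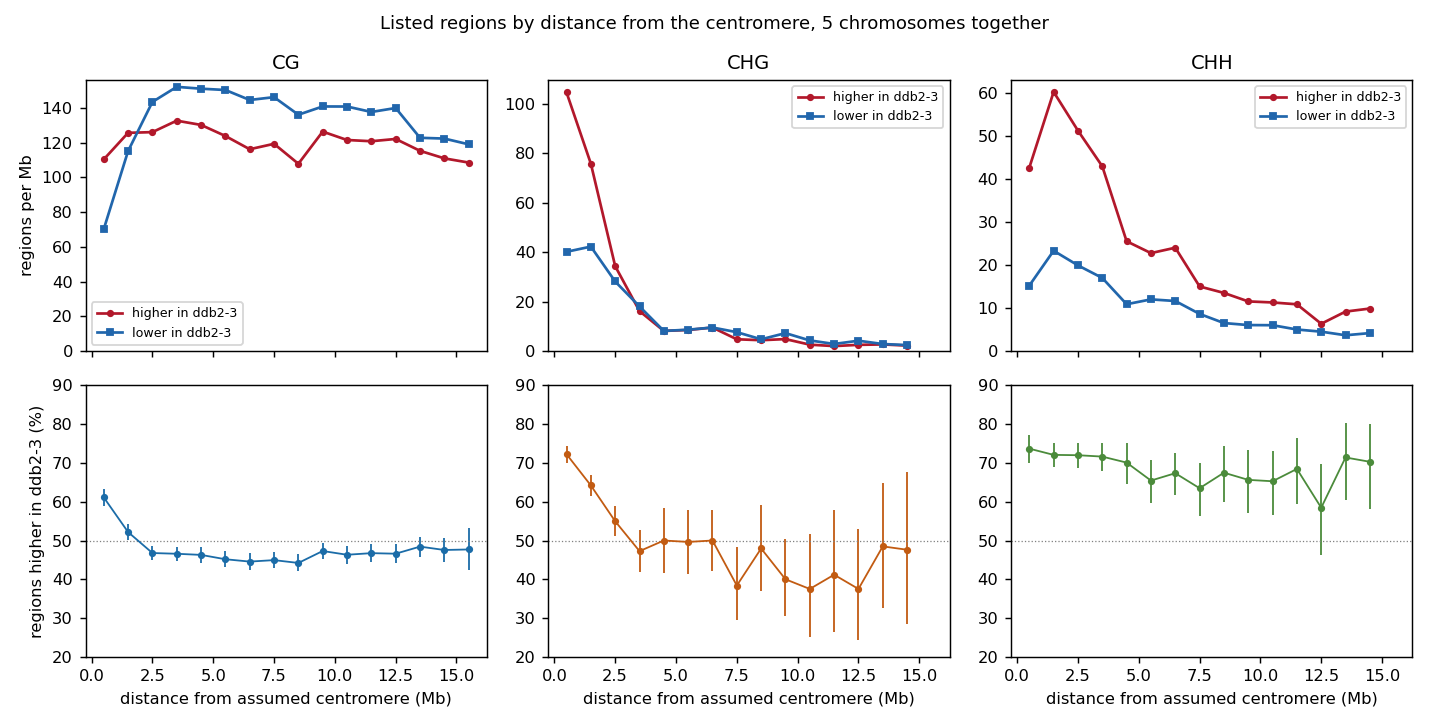
Regions per Mb (top row, higher in red circles and lower in blue squares) and share of regions higher in ddb2-3 (bottom row, percent, with 95% Wilson intervals) by distance from the assumed centromere in Mb, over the 5 chromosomes, without the outermost bins of few regions. The share is 61.1% in CG and 72.3% in CHG in the innermost Mb and is under 50% at 3 to 4 Mb in both, while in CHH it stays at 71.7% or above over the first 4 Mb.

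The series also lists regions of a line called cen against Col, whose sample is not described in the labels used here. Both comparisons share the Col library, so their values stand side by side only. In pericentromeres the share of higher regions was 66.0% in ddb2-3 and 91.6% in cen for CHG, 52.4% and 66.9% for CG, and 72.5% and 84.5% for CHH. On the arms it was 46.0% and 83.4% for CHG, 46.1% and 54.2% for CG, and 68.0% and 71.0% for CHH.

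The contexts differed in how regions were spaced. The median gap between neighbouring regions of ddb2-3 came to 1800 bp for CG, 6100 bp for CHG and 9900 bp for CHH, against mean gaps of 3799, 26514 and 26139 bp. The median CHG gap was 4650 bp in pericentromeres and 33250 bp on arms, and the CHH gap 6700 and 14900 bp. CG went the other way, with 2400 bp in pericentromeres and 1600 bp on arms. Gaps of at most 1 kb made up 39.0% of all CG gaps, 15.5% of CHG gaps and 19.4% of CHH gaps. The longest stretch without a CG region spanned 290 kb beside the centre of chromosome 1 (chr1:14602601-14892200). The longest without a CHG region spanned 1262 kb on the right arm of chromosome 4 (chr4:16141901-17404100), and the longest without a CHH region 495 kb on the left arm of chromosome 5 (chr5:1160401-1655300).

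The lists hold no pair of neighbouring regions with the same direction at 100 bp or less, among 2377 such CG pairs, 21 CHG pairs and 115 CHH pairs. Windows of the same direction at most 100 bp apart thus appear only as longer regions, and every pair that close is of opposite direction. This bears on any count of neighbours. Among all neighbours within 1 kb, 40.8% of 11817 CG pairs had the same direction (39.9% to 41.7%), 62.4% of 687 CHG pairs and 50.7% of 869 CHH pairs. With neighbours 200 bp to 1 kb apart, a range chosen after seeing the data, the CG share was 51.0% (50.02% to 52.04%), where the direction shares of the context alone give 50.1%. The CHG share was 64.4% (60.7% to 68.0%) beside 52.3%, and the CHH share 58.5% (54.9% to 62.0%) beside 58.1%. In CHH the zones lay on opposite sides of their own direction shares, within counting error. Arm pairs stood at 61.1% (56.4% to 65.6%) beside 56.5%, and pericentromeric pairs at 55.0% (49.6% to 60.3%) beside 60.1%.

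In CHG neighbours at these gaps had the same direction more often than the direction shares give, in both zones. In CG the share was 53.4% at a gap of 200 bp (51.2% to 55.6%), 52.7% at 300 bp (50.2% to 55.2%) and 49.4% at 600 to 1000 bp (47.8% to 51.0%). Pericentromeric CHG pairs had the same direction in 65.2% of 526 (61.0% to 69.2%), beside 55.1% from the shares of that zone, and arm pairs in 61.4% of 140 (53.2% to 69.1%), beside 50.3%. The CHG share was 57.2% at gaps of 1100 to 2000 bp, 60.7% at 2100 to 5000 bp, 56.4% at 5100 to 10000 bp and 52.3% at wider gaps of up to 50000 bp. These values pool both zones. At 1100 to 10000 bp the pericentromeric share was 59.0% of 1821 pairs (56.8% to 61.3%), beside 55.1% from that zone's shares. On arms it was 53.0% of 230 pairs (46.6% to 59.4%), an interval that holds the 50.3% from the arm shares. The 55.1% takes the same direction share throughout the pericentromere. Within that zone the share of higher CHG regions went from 72.3% in the innermost Mb to 55.0% at 2 to 3 Mb. The part of this gradient in the pericentromeric values was not tested. For adjoining windows, pairs of one direction were counted from the 200 bp regions, each a pair of joined windows. Pairs of opposite direction were counted from touching regions. Longer regions were left out, as were 104 places where CG regions of opposite direction overlapped, so the shares are not bounds. The counts were 2681 of one direction against 1135 of opposite direction in CG, or 70.3% (68.8% to 71.7%). In CHG they were 223 against 12, or 94.9%, and in CHH 353 against 53, or 86.9%.

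**Figure D3:**
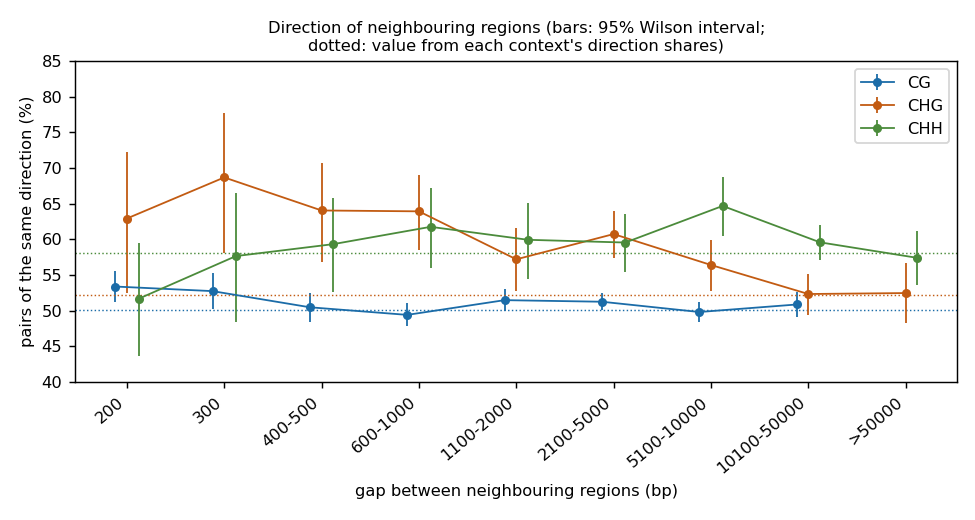
Share of neighbouring region pairs with the same direction (percent, y axis) by the gap between them (bp, x axis) in CG, CHG and CHH, from 200 bp up, with 95% Wilson intervals as bars. Dotted lines give the value from the direction shares of each context, 50.1%, 52.3% and 58.1%. The CHG points lie above their line, which pools arms and pericentromeres, up to 5000 to 10000 bp. The CG points stay within a few percent of theirs.

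In CG and CHH the direction also varied with the length of the region. Longer regions appear to join windows of one direction, which alone can raise the share of the commoner direction with length. Its part in these shares was not tested. Of the 80 CG regions of 600 bp or more, 35.0% were higher (25.5% to 45.9%), against 48.0% of the 25029 single windows (47.4% to 48.7%). CHH went the other way, with 68.9% higher among single windows (67.4% to 70.3%), 77.6% at 200 bp (73.0% to 81.7%) and 84.6% at 400 to 500 bp (70.3% to 92.8%). In 104 places a CG region overlapped another, in each case of opposite direction, and in 98 of them a 100 bp region lay inside the longer one. An example is AT1G53025, where the authors' deposited table gave a 900 bp region lower by 0.334 and, inside it, a 100 bp region higher by 0.108.

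The longest CG region of the comparison spanned 1200 bp in AT5G42950 (chr5:17228001-17229200), and the authors' deposited table gave it as lower in ddb2-3 by 0.755. Another 3 spanned 1000 bp, in the pseudogene AT1G33855, in AT3G19880 and in DDB2. At AT1G33855 the authors' deposited table gave a CG region lower by 0.531 (chr1:12291101-12292100) and a 900 bp CHG region lower by 0.238 (chr1:12291301-12292200). AT5G47300 had the opposite direction in both contexts, with a 900 bp CG region higher by 0.474 and an 800 bp CHG region higher by 0.279 in the authors' deposited table (both from chr5:19198401). At AT3G19880 the authors' deposited table gave the 1000 bp CG region as higher by 0.329 and a CHG region within it as higher by 0.204. At these 3 loci the long CG region and the CHG region overlapped and had the same sign.

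DDB2, the gene that carries the insertion, held 1 listed region, in CG. It covered 1000 bp (chr5:23731001-23732000) and was lower in ddb2-3 by 0.355 in the authors' deposited table. The line cen, compared with the same Col library, had 1 CG region overlapping this one, also lower, by 0.197 in the authors' deposited table. By midpoint, cen had 2 lower CG regions in DDB2 and no higher one. A methylation difference does not check the genotype, and the labels do not give the position of the insertion. The surroundings of DDB2 had densities close to those at the same distance from the centromere on the 5 chromosomes. Within 1 Mb to either side there were 260 CG regions per Mb, of which 45.6% were higher (41.3% to 49.9%), beside 270 per Mb and 46.1% on the rest of the right arm (44.2% to 48.0%). CHG regions there numbered 6 per Mb and CHH regions 18.0 per Mb. At 10 to 13 Mb from the centre, the range that holds DDB2, the 5 chromosomes together had 4.86 to 6.86 CHG and 10.8 to 17.3 CHH regions per Mb, and the rest of this arm, which reaches closer to the centromere, 17.04 and 32.4.

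Chains of at least 3 regions with gaps of at most 500 bp numbered 1659 in CG, 36 in CHG and 88 in CHH, and held 18.9%, 2.55% and 6.19% of the regions of each context. Of the CG chains 1485 mixed both directions, 103 were lower throughout and 71 higher throughout, counts to which the joining of near windows contributes. CHG chains were pericentromeric in 27 of 36 cases (75%), near the 73.2% of all CHG regions. CHH chains were so in 33 of 88 (37.5%) and CG chains in 253 of 1659 (15.3%). Both lay below the shares of all regions, 47.3% in CHH and 22.8% in CG. With the stricter limit on the difference 18 CHG and 4 CHH chains were left. The longest CG chains had 8 regions, and there were 5 of them. They lay in NRPB1, the largest subunit of RNA polymerase II, in Tudor2, a Tudor-SN protein, in the transporter genes ABCB3 and ABCB11, and in AT1G15060.

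NRPB1 held 11 CG regions, 8 lower and 3 higher. The chain of 8 began with 5 lower regions in a row (from chr4:16961701), for which the authors' deposited table gave differences of 0.478, 0.363, 0.271, 0.247 and 0.258. Further along the gene the authors' deposited table gave higher regions of 0.198, 0.335 and 0.362 among lower ones of 0.154, 0.219 and 0.392. The gene thus has a run of lower regions at its low-coordinate end and both directions beyond it. The longest CG chains of one direction had 5 regions, all lower, in AT4G17140 and in IRX1, a cellulose synthase subunit of secondary cell walls. In IRX1 the authors' deposited table gave them as 0.178, 0.217, 0.399, 0.143 and 0.212. In CHG the longest chain, of 5 regions with 4 higher, lay at the pseudogene AT3G42690, and the longest of one direction had 4 regions at AT5G28900 and AT5G28910. For these 4 regions the authors' deposited table gave differences between 0.123 and 0.231, all lower.

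Relative to genes, the 3 contexts had separate profiles. Of the 100 bp windows just inside a protein-coding gene, up to 200 bp from its nearest end, 0.955% were in a listed CG region, and the share was 7.62% at 1500 to 2000 bp inside. CHH ran the other way, from 0.108% of windows in the first 200 bp inside a gene to 1.16% at 1000 to 1500 bp outside. CHG was 0.157% just inside and 1.64% beyond 3000 bp outside. Both directions of CG windows were most frequent deep inside genes. Of the listed CG windows 39.9% were higher in the first 200 bp inside a gene (36.7% to 43.1%), and 46.6% at 1000 to 1500 bp inside (45.4% to 47.7%).

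In CG and CHG the direction also differed between zones far from genes, in a class with no upper limit on the distance. Beyond 3000 bp from a gene, 59.8% of the listed CG windows were higher in pericentromeres (58.0% to 61.5%) and 40.4% on arms (35.2% to 45.8%). For CHG the values were 71.1% (69.3% to 72.8%) and 48.0% (41.6% to 54.5%). For CHH they were 75.2% and 73.8%. Inside genes, at 1000 to 1500 bp from the end, the CG share was 44.8% in pericentromeres (41.3% to 48.3%) and 46.8% on arms (45.6% to 48.0%). Beyond 2000 bp inside genes it was 51.0% in pericentromeres (46.6% to 55.3%) and 45.3% on arms (44.0% to 46.6%). In the 7 other classes inside pericentromeric genes it lay between 43.0% and 49.6%.

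**Figure D4:**
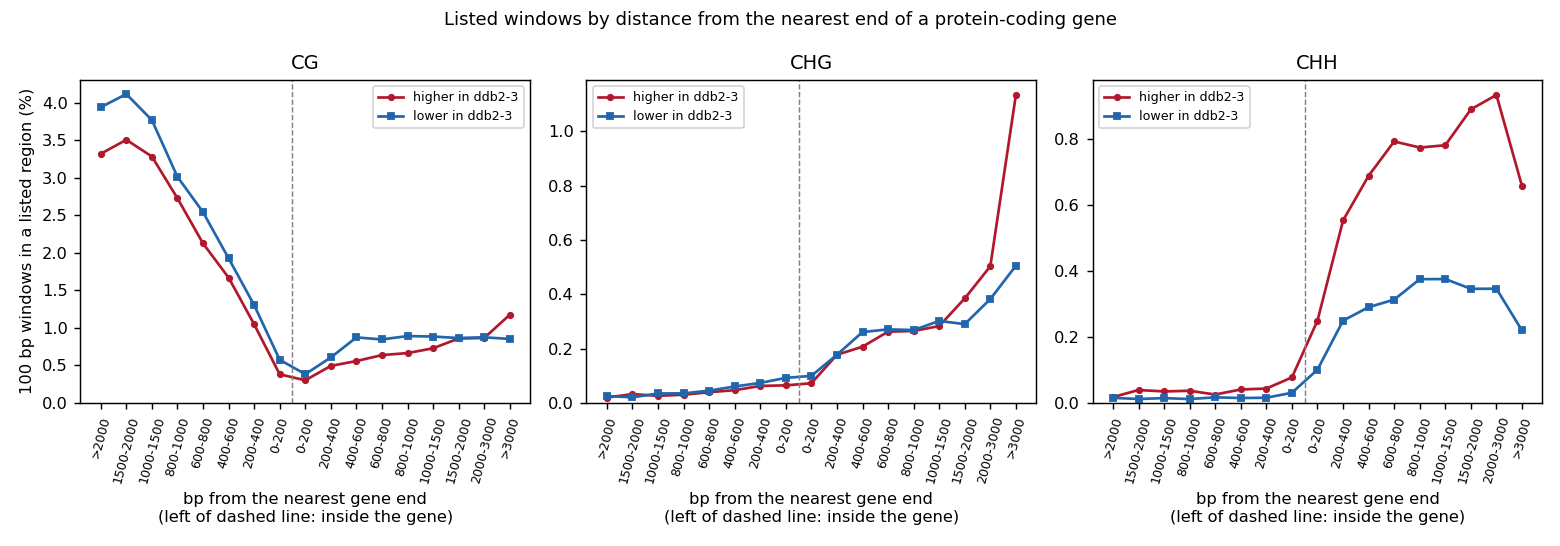
Share of 100 bp windows in a listed region (percent, y axis) by distance from the nearest end of a protein-coding gene in bp (x axis, inside the gene to the left of the dashed line), for higher (red circles) and lower (blue squares) windows in CG, CHG and CHH. The CG share is lowest next to the gene end and highest inside genes, and in CHG and CHH it is highest outside.

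Of 27444 protein-coding genes, 11810 (43%) held a CG region, 408 (1.49%) a CHG region and 270 (0.984%) a CHH region. A higher CG region was in 28.5% of genes and a lower one in 31.2%, a higher CHG region in 0.685% and a lower one in 0.849%, and a higher CHH region in 0.729% and a lower one in 0.332%. With 1 kb on either side added, 56.7% of genes had a CG region, 4.79% a CHG region and 7.36% a CHH region, with a higher CHH region at 5.37% and a lower one at 2.6%. The CG share followed gene length. It was 8.65% of genes under 1 kb, 51.9% at 2 to 3 kb, 83.2% at 4 to 6 kb and 99.2% of the 122 genes over 10 kb. Per kb the number of CG regions went from 0.146 under 1 kb to 0.534 at 6 to 10 kb. The share of higher CG regions lay between 45.5% and 47.2% in all 7 length classes.

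The 723 genes with 5 or more CG regions (2.63%) had a median length of 6.12 kb, against 2.08 kb over all genes. Both directions occurred in 708 of them. The gene with the most was AT4G17140, with 21 CG regions in 23.5 kb, of which 14 were lower. ATM, the kinase that signals DNA double-strand breaks, held 15 in 27.3 kb, 7 higher and 8 lower. The genes with 13 each were RLT2, which encodes a partner of ISWI chromatin remodellers, the midasin gene MDN1 (AT1G67120), ILA, AT3G50380 and AT5G23110. DCL1, the Dicer enzyme that makes microRNAs, followed with 12 in 8.11 kb, 5 higher and 7 lower. MDN1 was the most one-sided of these, with 11 of 13 regions lower. In DCL1 the authors' deposited table gave differences between 0.153 and 0.539, with no more than 3 neighbouring regions of one direction.

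Per kb, the most CG regions among genes of at least 2 kb were in AT1G70130, the lectin receptor kinase LecRK-V.2, with 7 in 2.23 kb. Along that gene the authors' deposited table alternated in direction from region to region, with absolute differences of 0.229, 0.124, 0.202, 0.243, 0.208, 0.445 and 0.264. INT3, an inositol transporter gene, held 6 regions in 2.14 kb, and DGD2, which encodes a synthase of the galactolipid of plastid membranes, 6 in 2.68 kb. INT3 began with 3 higher regions, given as 0.301, 0.279 and 0.200 in the authors' deposited table, and its largest difference was a lower one of 0.651.

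Of the 723 genes 12 were lower and 3 higher in all their CG regions. They were named after their values were seen, and the joining of near windows lowers such counts for close regions. The lower ones with 6 regions were EIF4G, a translation initiation factor, and GTA2, an SPT5 transcription elongation factor. For EIF4G the authors' deposited table gave 0.298, 0.142, 0.424, 0.237, 0.394 and 0.114. Those with 5 lower regions included DDB1B, a paralogue of the DDB2 partner DDB1, IRX1, the leaf polarity regulator REV, the starch synthase SS4 and the phosphofructokinase PFK4. In PFK4 the authors' deposited table gave one region as lower by 0.890, between 4 others of 0.106 to 0.472. The genes higher in all their regions were ATGRIP, a Golgi protein, with 6, and the receptor kinase PERK8 and AT4G28080 with 5 each. For ATGRIP the authors' deposited table gave 0.377, 0.321, 0.114, 0.242, 0.416 and 0.156.

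**Figure D5:**
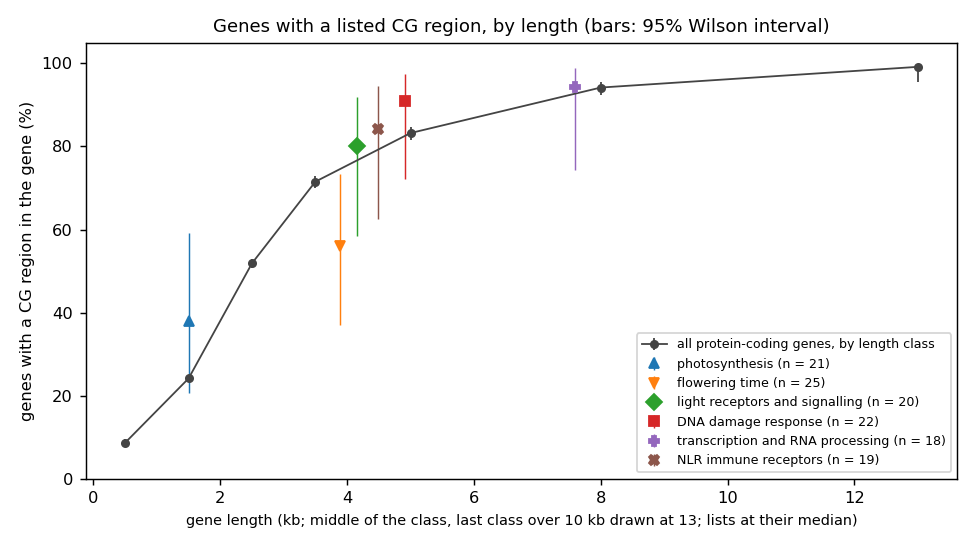
Share of genes with a listed CG region in the gene (percent, y axis) by gene length in kb (x axis), for all protein-coding genes in 7 length classes (black line) and for 6 gene lists at their median length (coloured symbols), with 95% Wilson intervals as bars. The share goes from 8.65% under 1 kb to 99.2% over 10 kb, with flowering time genes at 56.0% (37.1% to 73.3%) below the line and photosynthesis genes at 38.1% (20.8% to 59.1%) above it.

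Genes with regions in all 3 contexts inside the gene or within 1 kb numbered 212 (0.772%), of which 69 (32.5%) were pericentromeric, against 11.7% of all genes. With the stricter limit 51 were left. In 35 of the 212 every region was higher, in 20 every one was lower, and 157 were mixed. All 3 contexts lay inside the gene in 28 cases (0.102%). CG and CHG without CHH was found inside 220 genes, CG and CHH without CHG inside 93, and CHG and CHH without CG inside 19.

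Among these 28, AT3G05410 had the most regions, 10 in all, with 4 in CG, 5 in CHG and 1 in CHH. At chr3:1560501-1560600 the authors' deposited table gave the same window as higher in CG by 0.513 and in CHG by 0.181. AT2G41640 and AT2G41650 overlap and share the same 6 regions, all higher. There the authors' deposited table gave 0.168 and 0.121 in CG, 0.283, 0.207 and 0.285 in CHG and 0.154 in CHH. The sulfate transporter gene SULTR1;1 held 3 CG regions, 2 CHG regions of opposite direction and 1 CHH region, which the authors' deposited table gave as higher by 0.104. HDG9, a homeodomain gene, had 3 higher CG regions of 100 bp and 1 lower CG region of 500 bp (chr5:5706601-5707100), which contains its CHG and its CHH region. The authors' deposited table gave these 3 overlapping regions as lower, by 0.258 in CG, 0.235 in CHG and 0.126 in CHH.

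Among genes with the most CHG regions, AT1G35895 combined several features. It held 5 CG and 3 CHG regions, and the authors' deposited table gave a 900 bp CG region lower by 0.425 (chr1:13353501-13354400) with a CHG region inside it lower by 0.196. All 3 of its CHG regions were lower. AT1G27570 had 5 CHG regions and none in CG, 3 of them lower and 2 higher. The authors' deposited table gave 0.129, 0.173 and 0.159 for the lower and 0.116 and 0.159 for the higher ones. AT4G22410 likewise had 3 CHG regions, all lower, and no CG region in the gene. With 1 kb on either side added, it had 4 lower and 1 higher CHG regions and 1 lower CG region.

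The 6 gene lists, 125 genes in all, were set beside all protein-coding genes, of which 43.0% held a CG region, with a median of 0 regions per kb. A CG region lay in 17 of 18 transcription and RNA processing genes, in 20 of 22 DNA damage response genes, in 16 of 19 immune receptor genes of the NLR class, in 16 of 20 light receptor and signalling genes, in 14 of 25 flowering time genes and in 8 of 21 photosynthesis genes. Their medians were 0.579, 0.514, 0.298, 0.458, 0.210 and 0 CG regions per kb. Pooled over the genes of a list, the values were 0.679, 0.526, 0.325, 0.590, 0.305 and 0.247, beside 0.368 over all protein-coding genes. Immune receptor, flowering time and photosynthesis genes thus lay below the value of all genes, which takes no account of length. The lists differ in gene length, with medians from 1.51 kb for photosynthesis to 7.60 kb for transcription and RNA processing. All genes had 0.208 CG regions per kb at 1 to 2 kb, 0.434 at 3 to 4 kb and 0.469 at 4 to 6 kb. In the class of their median length, photosynthesis genes lay above all genes. Flowering time genes (median 3.89 kb) and immune receptors (4.48 kb) lay below. Of all genes, 83.2% held a CG region at 4 to 6 kb and 94.2% at 6 to 10 kb. Directions were mixed in each list, from 12 higher and 22 lower in the immune receptors to 15 and 15 in flowering time.

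In the DNA damage response list the apical kinases ATM and ATR held 15 and 8 CG regions. In ATR the authors' deposited table gave a lower region of 0.890 directly after a higher one of 0.133. PARP1, a poly(ADP-ribose) polymerase of strand-break signalling, held 6 regions, 5 of them higher, and the authors' deposited table gave these as 0.458, 0.289, 0.266, 0.233 and 0.229. REV3, the catalytic subunit of DNA polymerase zeta, had the opposite balance, with 5 of 6 lower. LIG4, the ligase of end joining, had 4 lower regions and none higher. KU70, which binds broken ends, and RAD17, a checkpoint clamp loader, had no CG region. PARP2 held 1 higher CHG region, and POLH and REV1 each had 1 higher CHH region within 1 kb.

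The phytochrome genes PHYA to PHYE, red and far-red light receptors, held 6, 3, 4, 5 and 3 CG regions. PHYA had 3 of each direction, with a higher region of 0.794 in the authors' deposited table. The SPA genes, partners of the COP1 ubiquitin ligase, held 6, 5, 4 and 1 from SPA1 to SPA4, and COP1 itself 1. The transcription factors PIF4, PIF5, HY5 and HYH had none in the gene. Among flowering time genes FLC, FT, CO, SOC1, LFY, AP1 and TFL1 had no CG region. The autonomous pathway genes FCA, FPA, FLD and LD had 4, 3, 3 and 3. All of FPA's were higher, given as 0.491, 0.131 and 0.243 in the authors' deposited table. TSF had 3 CHH regions within 1 kb, of both directions, and SVP 2 adjoining ones, for which the authors' deposited table gave a higher difference of 0.115 and a lower one of 0.170.

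Among immune receptor genes ZAR1 and RPS6 held 5 CG regions each, and RPM1 and RRS1 none in the gene. RPP4 had 3 CG and 2 CHG regions, all lower. Genes of these clusters have near-identical copies, and the labels do not say how reads of such copies were placed. The photosynthesis genes with a CG region held 1 each, 4 higher and 4 lower, among them RBCS1B of the Rubisco small subunit and PSBO1 and PSBO2 of the oxygen-evolving complex. LHCA2, an antenna protein of photosystem I, held 1 higher CHG region and no CG region.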

How the data were processed

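Whole-genome bisulfite sequencing was done on 1 library each of Col wild type and ddb2-3. Per the submitters' processing notes, reads were handled with Bismark and Bowtie2 2.0 on TAIR10, and Trim Galore, cutadapt and FastQC are also named. No region caller is given in the sources used here. For each context, the authors deposited a list of regions with a score, a signed difference in methylation level on a 100 bp grid, with no header, count or depth. The CHH list carries the feature name of a general region, and its context was taken from the file's own name. The 3 lists of ddb2-3 were recognised by the insertion name. The 3 of cen served only for the direction (identical values within 1.5e-06) and for values side by side.

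Regions were counted by zone, gap, chain and gene with SciPy 1.17.1, NumPy 2.4.6 and pandas 2.3.3 under Python 3.11.15 (figures, matplotlib 3.10.9), and the counting steps were tested on simulated data. A region belonged to a gene by its midpoint. Gene names and places came from RefSeq's TAIR10.1 gene table, none of whose coordinates are printed, and all 125 listed genes were found by locus identifier. For 1 gene of the lists no values are given here. Strand, exons and transposons are not in it and are not stated. Chromosomes were taken to end at the last gene or region. Genes were named by a rule (most CG, CHG or CHH regions, regions in all 3 contexts, longest chains and regions, largest differences, list members), and others as said in the text. The members, lists and rule were chosen with earlier results of these data known. Alternatives were a stricter limit on the difference, other gaps, flanks and pericentromere sizes, merging of touching regions and any overlap in place of the midpoint. Those with neighbours 200 bp to 1 kb apart, window shares and the innermost Mb were chosen after seeing the data.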

Additional observations from a re-analysis of the deposited data

How the results depend on the processing

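Over 23 results, 34 of 64 alternatives left the value within its interval or within 1.5 times a count. Merging of touching regions is not counted among them, since it removed 0 regions and could change nothing. The share of CG neighbours of one direction changed sides of an even split, from 40.8% to 51.0% with neighbours 200 bp to 1 kb apart and to 50.9% with the stricter limit added, since the excluded close pairs are of opposite direction by construction. It was 36.8% within 500 bp and 43.5% within 2 kb. For CHH neighbours the values were 45.4% within 500 bp, 58.5% at 200 bp to 1 kb and 57.7% with the stricter limit added. Chains of 3 or more numbered 569, 6 and 24 (CG, CHG, CHH) with gaps of at most 200 bp and 2893, 109 and 159 with gaps of at most 1 kb, and the stricter limit left 18 in CHG and 4 in CHH. Pericentromeres of 2 Mb and 4 Mb gave 56.0% and 50.8% higher in CG and 68.6% and 64.3% in CHG, and the CHG arms stood at 49.1% with 2 Mb. The stricter limit gave 50.6% for CG pericentromeres, 58.0% for the innermost Mb in CG, and 65.0% and 70.2% for CHH arms and pericentromeres, and CHH arms by windows stood at 70.1%. Genes with regions of 3 contexts numbered 51 with the stricter limit, 28 with no flank, 102 with 500 bp and 560 with 2 kb. Immune receptor genes with a CG region came to 94.7% with 1 kb flanks. The cause of these shifts was not tested beyond what each setting leaves out. The stricter limit kept 81.7% of the CG list, 75.2% of the CHG list and 25.4% of the CHH list, so CHH results rest most on small differences. No paired analysis was possible because each genotype has 1 library. No depth is given, so no limit from coverage could be set.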

Other observations

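Cut into 100 kb bins, the 5 chromosomes had a listed CG region of ddb2-3 in 1187 of 1188 bins, a CHG region in 824 and a CHH region in 984. The fullest CG bin held 54 regions, 24 higher and 30 lower (chr2:8700001-8800000). The fullest CHG bin held 28, of which 20 were higher (chr4:4400001-4500000), and the fullest CHH bin 29, of which 19 were higher (chr1:15100001-15200000).

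The largest CG difference of each chromosome and direction lay in a protein-coding gene in 10 of 10 cases. Most CG regions of any size did so. By midpoint, protein-coding genes held 11204 higher and 12873 lower ones, beside 14420 and 15904 listed. A region in overlapping genes counted for each gene. The authors' deposited table gave the largest lower ones in MOM, a transcriptional silencing factor, by 0.944 (chr1:2503501-2503800), and in GAMMA CA3, a carbonic anhydrase of mitochondrial complex I, by 0.945 (chr5:26550201-26550500). The largest higher one was in ZWI, a kinesin of trichome cells, by 0.936 in the authors' deposited table (chr5:26373701-26373800). In CHG the regions with the largest differences lay in pseudogenes or outside annotated genes. Only 408 protein-coding genes held any of the 4440 CHG regions. The largest CHG difference was 0.778 lower at chr1:17041901-17042000 in the authors' deposited table. For CHH the largest was lower by 1 at chr5:14333001-14333100 in the authors' deposited table. A pair near the centre of chromosome 1 followed in the authors' deposited table, higher by 0.975 at chr1:15390001-15390200 and lower by 0.972 at chr1:15254301-15254500. The depth behind these regions is unknown.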
